A study of Mus musculus with 7 samples.

Results

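The genes described here are 10 genes whose proteins read chromatin through a PWWP domain and that lie outside the HDGF family of HRP-2: *Dnmt3a*, *Dnmt3b*, *Brpf1*, *Brd1*, *Brpf3*, *Glyr1*, *Msh6*, *Zmynd11*, *Zmynd8* and *Pwwp2a*. They were taken by name from the 25033 gene symbols in the count files, and all 10 were present and passed the filter on low counts. RNA came from lineage depleted (lin-) bone marrow, the immature cells left in femur and tibia marrow once red cells are lysed and cells with mature lineage markers are removed, of mice aged 6 to 8 weeks. The 3 wild type mice were Hrp2+/+ and the 4 knockout mice were Hrp2-/-, of the C57BL/6N strain with the Hdgfrp2 tm1b allele, which removes HRP-2 in every tissue. Fewer knockout mice than their share of births reach this age in the colony, so those sampled are survivors. Each library is labelled a biological replicate, taken here as 1 mouse, and was made from the 3′ ends of polyadenylated RNA.

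The PWWP domain is a small fold that binds the nucleosome through a methylated lysine, most often lysine 36 of histone H3, together with the DNA around it. This mark is laid down over the bodies of transcribed genes and over some intergenic chromatin. HRP-2 and its paralog LEDGF/p75 carry the domain at their N terminus, and the 10 genes described here encode other proteins that use it. Among them are the de novo DNA methyltransferases, scaffolds of histone acetyltransferases, a mismatch repair protein and regulators of transcription. The question the design puts to them is whether their RNA changes in immature marrow when HRP-2 is absent.

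No member passed the test between the genotypes. With edgeR's quasi-likelihood test over the 11265 genes tested, 0 of the 10 had an adjusted p under 0.25, the threshold of the study, where 0.0178% of all genes did. The adjusted p was 0.999 for every member, and 0 of the 10 had an unadjusted p under 0.05, where 3.63% of all genes did (2.07% lower and 1.56% higher in the knockout). In 5 of 17 other fits 1 member, *Pwwp2a*, had an unadjusted p under 0.05. DESeq2 gave 0 of 10 at the adjusted threshold as well. By sign 3 members were higher and 7 lower in the knockout, beside 49.8% higher and 50.2% lower among all genes. The median log2 fold change (knockout over wild type) of the members was −0.04, and the median of its size was 0.07, beside 0.15 over all genes tested. For 9 of the 10 the change was under 0.25 on the log2 scale in either direction, as it was for 69.1% of all genes. The members were not spread over all levels of expression. They lay from the 58.1 to the 90.9 percentile of level among all genes tested. Their sizes of change were not compared with those of genes at like levels, and the part of level in them was not tested.

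The intervals give the range of differences that each gene's values leave, before any adjustment for the number of genes tested. The 95% interval of the fitted log2 fold change held 0 for all 10 members. For 8 of them it lay within 0.5 on either side, which is a fold between 0.707 and 1.41. *Brpf3* and *Pwwp2a* were the exceptions, with lower bounds of −0.58 and −0.83. The highest upper bound among the members was a fold of 1.36, for *Brd1*. A gene whose interval left out 0 could still miss the adjusted threshold, as *Msh3* did.

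**Figure D1:**
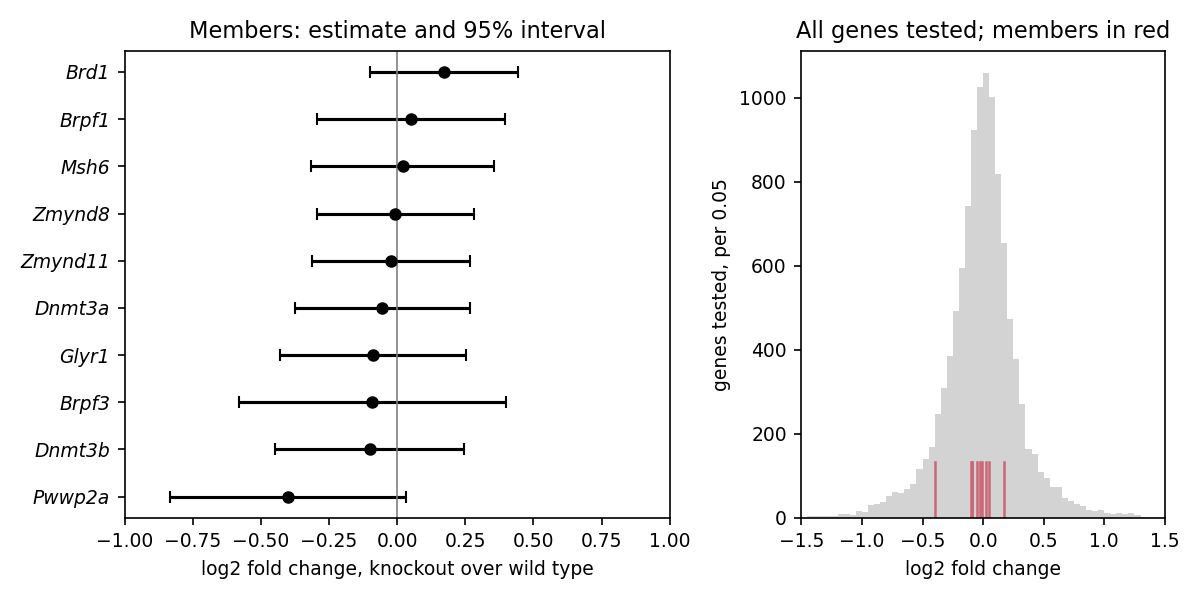
Left, the log2 fold change of each member between knockout (n = 4) and wild type (n = 3) mice, with its 95% interval from edgeR's quasi-likelihood fit; every interval crosses 0. Right, the same quantity for the genes tested (grey bars, number of genes; the few beyond the axis are not drawn), with the 10 members as red lines, 9 of them within 0.25 of 0.

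The libraries held between 3525665 and 5605158 reads on genes, so that 3 reads corresponded to between 0.561 and 0.840 CPM (reads relative to the library total, scaled with edgeR's TMM factors). The members had from 107 to 1020 reads in a library, far above that floor. The knocked-out gene, listed as *Hdgfl2*, had 228, 156 and 168 reads in wild type replicates 1 to 3 and 13, 3, 8 and 2 in knockout replicates 1 to 4. Its log2 fold change was −5.09 (standard error 0.34), and edgeR's quasi-likelihood test gave an adjusted p of 1.38e-07. The ribosomal precursor *Rn45s* accounted for 4.94% to 20.6% of gene reads and was highest in wild type replicate 2 (20.6%) and knockout replicate 4 (18.6%). Knockout replicate 3 stood apart in sex-linked genes, with *Xist* at 0.561 CPM against 229 to 303 in the other 6 mice and *Ddx3y* at 104 CPM against at most 0.777. Of 11 markers of immature and myeloid progenitor cells (*Kit*, *Cd34*, *Flt3*, *Myb*, *Gata2*, *Spi1*, *Cebpa*, *Mpo*, *Elane*, *Prtn3*, *Ctsg*) all 11 were tested, summing to between 8320 and 11603 CPM per library. The globin genes *Hba-a1*, *Hbb-bs* and *Hbb-bt* were listed at 0 in every library. They have near-identical copies, so their counting is uncertain. Summed neutrophil markers (*Ly6g*, *S100a8*, *S100a9*, *Mmp8*, *Ltf*) ran from 5905 to 8642 CPM in the wild type and from 7216 to 17349 CPM in the knockout, and summed macrophage markers (*C1qa*, *C1qb*, *C1qc*, *Adgre1*, *Vcam1*) from 272 to 341 CPM and from 188 to 238 CPM, without overlap. *Vcam1* made up most of that sum, and *Adgre1* averaged 9.75 CPM in the wild type against 9.67 in the knockout, while the other 4 markers did not overlap, as 5.16% of all genes tested did not. Summed eosinophil, basophil and mast cell markers (*Prg2*, *Mcpt8*, *Cpa3*, *Ms4a2*) did not overlap either. They ran from 2438 to 2547 CPM in the wild type and from 1703 to 2299 CPM in the knockout. Of the 4 only *Prg2* did not overlap on its own, at 1103 to 1291 CPM in the wild type against 883 to 953. *Mcpt8*, *Cpa3* and *Ms4a2* each overlapped. The part of these cells in the member values was not tested. In bulk RNA, fewer cells of a type and less RNA per cell cannot be told apart.

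Because reads were counted at the 3′ end, transcripts that share an end share a count. *Dnmt3a* is shown as an example. It is known to have a long form and a short form made from an internal start, and in GENCODE M21 (GRCm38) the transcripts Dnmt3a-201 and Dnmt3a-203 start at 3807030 and 3891744 on chromosome 12 and both end at 3914443. The 150 bases before the first and before the last RefSeq start of *Dnmt3a* (GRCm38.p6, plus strand, chr12:3806830-3806979 and chr12:3891594-3891743), with each CpG in capitals, are:
Dnmt3a first start: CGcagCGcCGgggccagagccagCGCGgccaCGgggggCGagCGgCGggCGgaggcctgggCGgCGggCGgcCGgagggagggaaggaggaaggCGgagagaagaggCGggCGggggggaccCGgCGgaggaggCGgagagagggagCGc
Dnmt3a last start: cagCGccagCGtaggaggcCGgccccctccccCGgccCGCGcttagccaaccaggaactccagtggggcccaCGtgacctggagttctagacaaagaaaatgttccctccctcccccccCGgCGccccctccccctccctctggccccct
The first stretch holds 21 CpG and the last 9. Dnmt3a-201 and Dnmt3a-203 give reads at 1 shared end, so the *Dnmt3a* values below sum over both transcripts. The last RefSeq start is that of Dnmt3a-203, and the first lies before that of Dnmt3a-201. Where the product of the first RefSeq start ends was not checked.

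RefSeq lists 19 start windows for the 10 genes, each from 250 bases before to 50 after the start, and 13 of them had at least 50% G and C and an observed over expected CpG ratio of at least 0.6. That is 68.4% of their windows, beside 66.1% of the 11462 windows of genes tested. Each of the 10 members had at least 1 such window, beside 73.6% of the 9003 genes tested with a listed window. *Zmynd8* had 1 such window among 5, and its windows held from 5 to 17 CpG. This is a description of the starts and was not related to the RNA levels.

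The levels of the members spanned less than an order of magnitude. A 3′ library gives 1 fragment per transcript, so these CPM were not divided by length, and how well each 3′ end is primed and mapped still differs between genes. In that order *Zmynd11* stood at 169 CPM over the 7 mice, *Brd1* at 146, *Glyr1* at 144, *Zmynd8* at 90.7, *Dnmt3a* at 62.3, *Brpf1* at 61.6, *Msh6* at 60.4, *Pwwp2a* at 55.0, *Dnmt3b* at 46.1 and *Brpf3* at 37.5. Between neighbours the ranges over mice were apart at 2 places, below *Glyr1* and below *Zmynd8*. The first 3 genes overlapped with one another, and so did each neighbouring pair from *Dnmt3a* down to *Brpf3*. *Brpf3* lay at the 58.1 percentile of level among all genes tested and *Zmynd11* at the 90.9 percentile. *Hdgfl2* itself, at 46.1 ± 3.42 CPM (SD, n = 3) in wild type cells, was on the level of *Dnmt3b*.

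**Figure D2:**
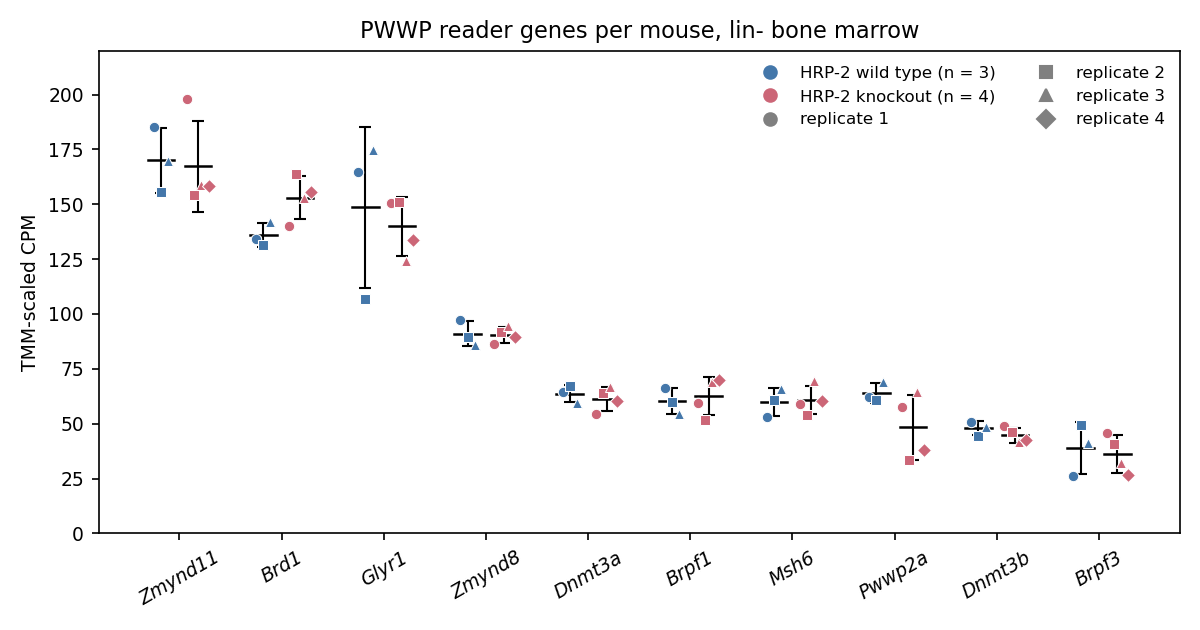
TMM-scaled CPM of the 10 members in each mouse, ordered by mean level. Each point is 1 mouse (blue wild type, red knockout, shape by replicate number), with horizontal lines for the mean and bars for the SD; the 2 genotypes overlap for every member, and *Glyr1* in wild type and *Pwwp2a* in knockout mice show wide spreads.

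The de novo DNA methyltransferases DNMT3A and DNMT3B add methyl groups to unmethylated CpG and are directed to chromatin in part by their PWWP domains; loss of DNMT3A is known to favour self-renewal of hematopoietic stem cells. *Dnmt3a* stood at 64.3, 67.2 and 59.5 CPM in wild type replicates 1 to 3 and at 54.2, 64.0, 66.5 and 60.5 CPM in knockout replicates 1 to 4. Knockout replicate 1 was the lowest of the 7 mice and the other knockout mice lay within the wild type range (log2 fold change −0.05, 95% interval −0.38 to 0.27). *Dnmt3b* stood at 50.7, 44.5 and 48.6 CPM in the wild type and at 48.8, 46.1, 41.7 and 42.4 CPM in the knockout. The lowest values came from knockout replicates 3 and 4, but replicates 1 and 2 lay within the wild type range (log2 fold change −0.10, interval −0.45 to 0.25). The spread between mice of a genotype was 6.09% to 8.69% of the mean for these genes, where counting alone gives 5.30% to 7.93%. Of the reads on the 2 genes, *Dnmt3b* took 43.0% ± 2.73 in the wild type (SD, n = 3) against 42.2% ± 3.71 in the knockout (SD, n = 4).

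Other genes of DNA methylation were on the same footing. Of 6 listed, 5 were tested, 4 higher and 1 lower, and 0 passed the threshold in either direction. *Dnmt1*, the maintenance methyltransferase, averaged 304 ± 55.5 CPM in the wild type (SD, n = 3) against 354 ± 38.5 in the knockout (SD, n = 4), with a log2 fold change of 0.22 (interval −0.09 to 0.53). Without wild type replicate 2 it was 0.09, and without wild type replicate 3 it was 0.35 (unadjusted p = 0.0440 and adjusted p = 0.9999 by edgeR's quasi-likelihood test). *Uhrf1*, which brings DNMT1 to newly copied DNA, had a log2 fold change of 0.12 (interval −0.17 to 0.42), and the oxidase *Tet1* 0.24 (interval −0.40 to 0.88). Both depended on single mice, with *Uhrf1* at 0.06 without knockout replicate 4 and 0.19 without knockout replicate 2, and *Tet1* at 0.11 without knockout replicate 1 and 0.36 without knockout replicate 2. *Dnmt3l*, the catalytically inactive cofactor of the de novo enzymes, had from 2 to 9 reads in a library and was not tested.

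BRPF1, BRD1 (also called BRPF2) and BRPF3 are paralogous scaffolds that hold the MOZ, MORF and HBO1 histone acetyltransferases together and join them to chromatin. *Brd1* was the most abundant of them and had the largest positive fold change among the members. It stood at 134, 132 and 142 CPM in wild type replicates 1 to 3 and at 140.3, 164, 153 and 155 CPM in knockout replicates 1 to 4. Knockout replicates 2 to 4 lay above all wild type mice, and replicate 1 lay inside the wild type range. The log2 fold change was 0.17 (standard error 0.13, interval −0.10 to 0.44), with an unadjusted p of 0.203 in edgeR's quasi-likelihood test. *Brd1* also had the smallest spread between wild type mice among the members, 4.06% of the mean, where counting alone gives up to 4.61%.

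*Brpf1* and *Brpf3* showed no order between the genotypes. *Brpf1* stood at 66.5, 59.9 and 54.5 CPM in the wild type and at 59.5, 51.7, 69.1 and 69.8 CPM in the knockout. Both the lowest and the 2 highest values were in knockout mice (log2 fold change 0.05, interval −0.29 to 0.40). *Brpf3* stood at 26.1, 49.6 and 41.2 CPM in the wild type and at 45.9, 40.9, 32.0 and 26.7 CPM in the knockout. Wild type replicate 1 and knockout replicate 4 were the lowest, and the fitted log2 fold change of −0.09 had the widest interval of the members, −0.58 to 0.40. The spread of *Brpf3* was 30.5% of the mean in wild type and 23.8% in knockout mice, above the 6.51% to 9.67% that counting alone gives.

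Within the reads on the 3 scaffold genes, *Brpf3* made up 11.5% (exact 95% interval 9.64 to 13.6) in wild type replicate 1 and 20.6% (17.9 to 23.4) in wild type replicate 2, so its share differed between mice of 1 genotype by more than counting error. In the knockout mice it ran from 10.6% to 18.7%. *Brd1* took 57.8% ± 2.83 in the wild type (SD, n = 3) against 60.7% ± 2.84 in the knockout (SD, n = 4), and the ranges overlapped. These intervals cover counting error only.

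Nor did any partner of the scaffolds pass the test. All 9 listed genes of the MOZ, MORF and HBO1 complexes were tested, 5 higher and 4 lower, with a median log2 fold change of 0.01 and 0 past the threshold in either direction. *Meaf6*, a small shared subunit, had the smallest unadjusted p of them, averaging 43.6 ± 3.22 CPM in the wild type (SD, n = 3) against 52.4 ± 8.26 in the knockout (SD, n = 4) (log2 fold change 0.27, interval −0.10 to 0.64). Without knockout replicate 1, its highest mouse, the value was 0.16. *Kat7*, which encodes the acetyltransferase HBO1, had a log2 fold change of 0.10 and *Jade1*, an alternative scaffold of HBO1, −0.13. *Kat7* was at 0.05 without knockout replicate 4 and 0.18 without knockout replicate 3, and *Jade1* at −0.05 without wild type replicate 3.

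PWWP2A binds nucleosomes that hold the histone variant H2A.Z and associates with the deacetylase core of the NuRD complex. *Pwwp2a* had the largest change and the smallest unadjusted p of the members. Its levels were 62.1, 60.8 and 69.1 CPM in wild type replicates 1 to 3 and 57.5, 33.5, 64.3 and 38.1 CPM in knockout replicates 1 to 4. Knockout replicates 2 and 4 were far below every other mouse, with 161 and 153 reads, whereas replicate 3 lay inside the wild type range and replicate 1 just below it. The fitted log2 fold change was −0.40 (standard error 0.21, interval −0.83 to 0.03), with an unadjusted p of 0.0685 in edgeR's quasi-likelihood test. The spread was 6.99% of the mean in wild type and 30.8% in knockout mice, where counting alone gives 5.39% to 8.08%.

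The difference in *Pwwp2a* rested on those 2 mice. Without knockout replicate 2 the log2 fold change was −0.26, which is a 1.5-fold smaller value, and without replicate 4 it was −0.30. Without knockout replicate 3, the mouse that stood apart in sex-linked genes, it was −0.57 (unadjusted p = 0.0119 and adjusted p = 0.9995 by edgeR's quasi-likelihood test), and the genotypes then did not overlap, which held for 9.23% of all genes in that fit. Of the 2 low mice, replicate 4 had an *Rn45s* share of 18.6% and summed stromal markers (*Col1a1*, *Cxcl12*, *Lepr*) of 537 CPM, where the other mice had 17.0 to 108. Replicate 2 had 9.21% and 51.3 CPM. The summed progenitor markers of these 2 mice lay inside the range of the others, 8320 to 11603 CPM, with *Mpo* the largest part. *Flt3* was lowest in replicates 2 and 4 (31.4 and 42.4 CPM, the others 46.1 to 67.6). So was *Gata2* (99.3 and 109 CPM, the others 159 to 248). No other marker of that list had both mice lowest or both highest. Both mice had the lowest summed eosinophil, basophil and mast cell markers, at 1703 and 1767 CPM where others had 2108 to 2547. The part of these values in the result was not tested. The paralog *Pwwp2b* was scarce, with 9 to 29 reads in a library, and *Pwwp2a* made up from 90.4% to 95.9% of the reads on the pair.

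The companions of PWWP2A in the list of NuRD and H2A.Z genes also held none past the threshold. All 15 were tested, 8 higher and 7 lower, with a median log2 fold change of 0.02 and 0 past the threshold. *Chd3*, a NuRD remodeler, had a log2 fold change of 0.26 (interval −0.07 to 0.58). It was 0.17 without knockout replicate 3 and 0.35 without knockout replicate 2 (unadjusted p = 0.0358 and adjusted p = 0.9999 by edgeR's quasi-likelihood test). *Mta1*, a subunit of the deacetylase core, had −0.24 (interval −0.63 to 0.16), which was −0.42 without wild type replicate 2 (unadjusted p = 0.0225 and adjusted p = 0.994 by edgeR's quasi-likelihood test) and −0.04 without wild type replicate 3. *H2afv*, one of the H2A.Z genes, had −0.12 (interval −0.39 to 0.16), with −0.04 without wild type replicate 1 and −0.20 without wild type replicate 2.

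GLYR1 (also NPAC or NDF) binds H3K36me3 chromatin and is a cofactor of the demethylase LSD2, the product of *Kdm1b*. *Glyr1* stood at 165, 107 and 175 CPM in wild type replicates 1 to 3 and at 151, 151, 124 and 134 CPM in knockout replicates 1 to 4. Wild type replicate 2 was the lowest of the 7 mice and the other 2 wild type mice were the highest, so the spread was 24.7% of the mean in wild type and 9.49% in knockout mice. The log2 fold change was −0.09 (interval −0.43 to 0.25) with all mice and −0.28 without wild type replicate 2, over 1.5 times larger, with no overlap between the genotypes, where 13.2% of all genes had none in that fit (unadjusted p = 0.0721 and adjusted p = 0.994 by edgeR's quasi-likelihood test). Without wild type replicate 3 it turned to 0.04. Wild type replicate 2 had the highest *Rn45s* share, 20.6%, and its part in the value was not tested. *Kdm1b* averaged 19.9 ± 2.61 CPM in the wild type (SD, n = 3) against 16.9 ± 5.51 in the knockout (SD, n = 4), and its log2 fold change was −0.23 (interval −0.79 to 0.32), −0.47 without knockout replicate 1 and −0.09 without knockout replicate 3.

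**Figure D3:**
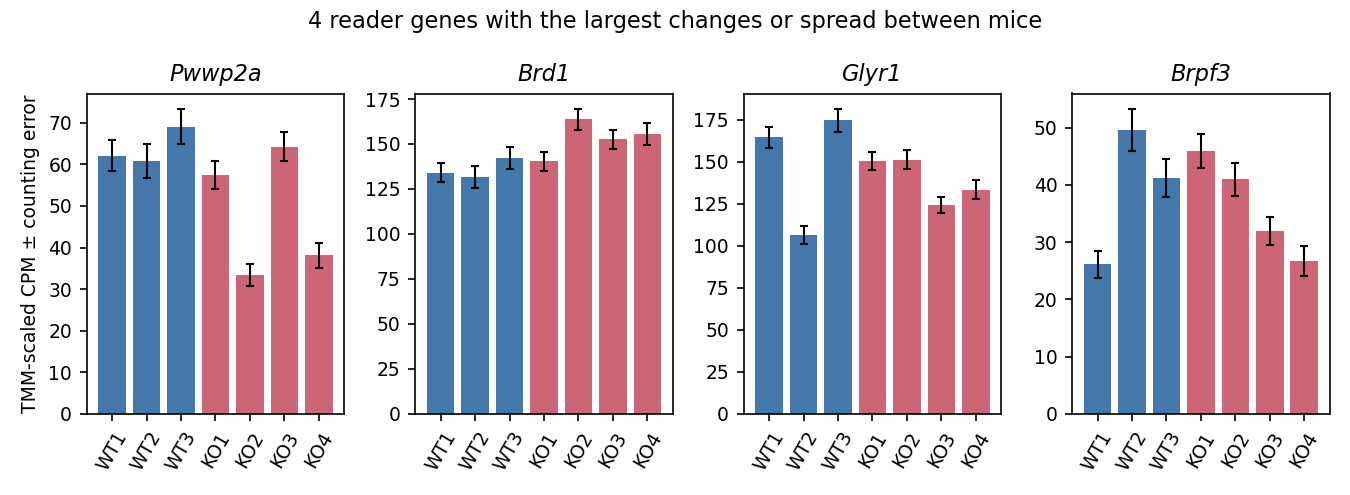
TMM-scaled CPM of *Pwwp2a*, *Brd1*, *Glyr1* and *Brpf3* in each mouse (blue bars wild type replicates 1 to 3, red bars knockout replicates 1 to 4), with bars of 1 counting error (the level divided by the square root of the reads). *Pwwp2a* is low in knockout replicates 2 and 4, at 33.5 and 38.1 CPM, and *Glyr1* is low in wild type replicate 2, at 107 CPM.

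ZMYND11 and ZMYND8 join a PWWP domain to a PHD finger, a bromodomain and a MYND finger. ZMYND11 reads trimethylated lysine 36 on the histone variant H3.3 and is known to restrain elongation, and ZMYND8 is a corepressor that has been found with NuRD and with histone demethylases. *Zmynd11* stood at 185, 156 and 169.5 CPM in wild type and at 198, 154, 159 and 158 CPM in knockout replicates, the highest value being that of knockout replicate 1 (log2 fold change −0.02, interval −0.31 to 0.27). *Zmynd8* was the least variable member in the knockout mice, at 3.96% of the mean. Its levels were 97.2, 89.6 and 86.1 CPM in the wild type and 86.3, 91.8, 94.7 and 89.4 CPM in the knockout (log2 fold change −0.01, interval −0.29 to 0.28). The H3.3 genes *H3f3a* and *H3f3b* had log2 fold changes of −0.08 and 0.17. Without 1 mouse they ran from −0.14 (knockout replicate 4) to −0.03 (knockout replicate 3) and from 0.09 (knockout replicate 4) to 0.28 (wild type replicate 1). Of the 4 genes listed around GLYR1 and ZMYND11, with the H3K36 methyltransferase gene *Setd2*, 2 were higher, 2 lower and 0 past the threshold.

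MSH6 is a mismatch repair protein that recognises single mismatches, and its PWWP domain brings it to H3K36me3 chromatin. *Msh6* stood at 53.1, 60.8 and 65.9 CPM in wild type replicates 1 to 3 and at 59.1, 53.8, 69.3 and 60.5 CPM in knockout replicates 1 to 4. The genotypes covered nearly the same range (log2 fold change 0.02, interval −0.32 to 0.36). The levels of *Msh6* follow cycling cells in many tissues. The summed level of 13 cycling genes lay between 3368 and 3604 CPM in wild type and between 3424 and 3630 CPM in knockout mice.

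*Msh3*, a mismatch repair gene whose product acts on larger loops, did not pass the test either, but its levels lay apart. It had 91, 74 and 57 reads in wild type and 150, 143, 170 and 124 reads in knockout replicates. It averaged 18.6 ± 3.02 CPM in the wild type (SD, n = 3) against 30.4 ± 1.17 in the knockout (SD, n = 4), and each of the 4 knockout values exceeded the 3 others. The log2 fold change was 0.71 (standard error 0.21, interval 0.27 to 1.14). The unadjusted p was 0.00322 and the adjusted p 0.989 by edgeR's quasi-likelihood test, and over the other fits the adjusted p ran from 0.423 (DESeq2) to 0.9999. The CPM of 5.16% of all genes tested did not overlap between the genotypes (2.37% higher and 2.79% lower in the knockout), and among the 7 mismatch repair genes listed *Msh3* was the only one. As a share of the reads on *Msh6* and *Msh3*, *Msh6* made up 72.7%, 74.6% and 81.3% in wild type and 67.0%, 64.4%, 68.6% and 66.2% in knockout replicates, which do not overlap. This share was put together after the files were read and carries the *Msh3* difference, so it was not tested.

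**Figure D4:**
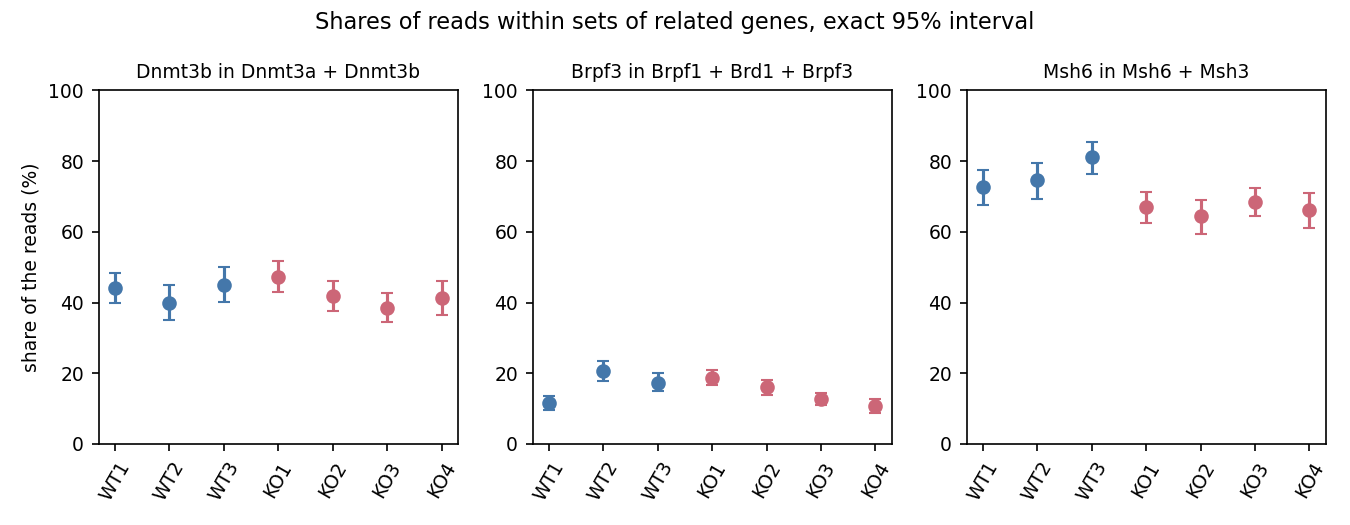
Share of the reads, in percent, of *Dnmt3b* among *Dnmt3a* and *Dnmt3b*, of *Brpf3* among the 3 scaffold genes and of *Msh6* among *Msh6* and *Msh3*, for each mouse (blue wild type, red knockout), with exact 95% binomial intervals that cover counting error only. The first 2 shares overlap between genotypes, while *Msh6* lies between 72.7% and 81.3% in wild type and between 64.4% and 68.6% in knockout mice.

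None of the 10 members had CPM that did not overlap between the genotypes, beside 5.16% of all genes tested. Their summed level was 904, 826 and 911 CPM in wild type and 900.4, 851, 873 and 835 CPM in knockout replicates, with no order between genotypes. Of 13 other genes with a PWWP domain, 12 were listed in the files and 10 tested, 6 higher and 4 lower, 0 past the threshold in either direction and with a median log2 fold change of 0.04. *Hdgfl1* had no reads in any mouse and *Pwwp3b* at most 5. *Mbd5* had the smallest unadjusted p of these, with 8 to 22 reads in a library, and its CPM did not overlap. It averaged 3.79 ± 0.920 CPM in the wild type (SD, n = 3) against 2.26 ± 0.218 in the knockout (SD, n = 4), a log2 fold change of −0.74 (interval −1.83 to 0.34). *Hdgfl3* had a log2 fold change of −0.39 (interval −0.97 to 0.18), and *Nsd1*, an H3K36 methyltransferase that carries PWWP domains itself, −0.18 (interval −0.50 to 0.13). *Hdgfl3* was at −0.25 without knockout replicate 4, and *Nsd1* at −0.12 without knockout replicate 2 and −0.31 without knockout replicate 3.

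Seen over all PWWP genes, *Hdgfl2* was a small part of the pool of RNA, taken as their summed CPM. *Hdgf* alone averaged 559 CPM in the wild type. No protein was measured. *Hdgfl2* took 2.22% ± 0.184 of the summed CPM of genes with a PWWP domain in the wild type (SD, n = 3) against 0.0624% ± 0.0446 in the knockout (SD, n = 4). The 10 members took 42.4% ± 1.99 (SD, n = 3) against 42.5% ± 0.652 (SD, n = 4). The whole pool summed to 2075 ± 34.6 CPM (SD, n = 3) against 2033 ± 59.4 (SD, n = 4), and its ranges overlapped.

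On chromosome 17 of GRCm38 *Brpf3* (28801090 to 28839949) and *Msh6* (87975062 to 87990892) lie on either side of *Hdgfl2* (56079634 to 56100607), at 27.24 and 31.87 Mb from it. The other members lie on chromosomes 2, 6, 11, 12, 13, 15 and 16, among them *Pwwp2a* on chromosome 11 from 43681998 to 43721491 and *Brd1* on chromosome 15 from 88687034 to 88734233. The strand of counting is not stated, and 2 members have an annotated neighbour on the opposite strand within 1000 bases of their 3′ end. *Zmynd11* shares 388 exonic bases there with *Gm36423*, a gene with no entry in the files used here. *Msh6* shares 34 with *Fbxo11*, which had 659 reads over the 7 mice. Reads of this pair that fall there cannot be told apart, and their number was not counted.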

How the data were processed

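According to the study's methods, the authors made 3′ end libraries (QuantSeq) from total RNA, read them as single reads, aligned them to GRCm38 with STAR and counted reads per Ensembl gene with STAR. The deposited values are whole-number counts per gene symbol and mouse, without normalization. The 5 tally rows of each file were left out. Replicate numbers are those of the labels.

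Counts were scaled with TMM, filtered with filterByExpr and compared with edgeR 4.0.16 (quasi-likelihood test, robust, R 4.3.3), with Benjamini-Hochberg adjustment over all genes. The common biological coefficient of variation was 21.3%. A standard error is the size of the log2 fold change divided by the square root of F, and intervals use its degrees of freedom. The fit was tested on simulated counts. Alternatives were DESeq2 1.42.0, limma-voom (limma 3.58.1), other scalings and filters, a replicate block, omission of each mouse or of *Rn45s*, and thinning. The members and gene lists were chosen with earlier results of these data known. All members are named, with up to 3 genes of each partner list by smallest p, except for items withheld and not reported here. The shares of *Msh6*, *Pwwp2a* and *Zmynd11* within pairs were added after the files were read. Each of the 9 pairs of libraries within a genotype differed beyond sampling noise (chi-square over genes). Gene positions are from GENCODE M21, and 97.6% of the symbols are in it. Start windows are from RefSeq (GRCm38.p6).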

Additional observations from a re-analysis of the deposited data

Results flagged for a closer look

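Within the 4 knockout mice, 53 values were examined for a mouse whose gap to the nearest of the others exceeded Dixon's 95% limit, as a share of the whole range, and 3 had one, where chance gives about 1 in 20, or 2.65. *Zmynd11* was high in knockout replicate 1, at 198 CPM, the highest level of any member in any mouse. The summed megakaryocyte markers (*Pf4*, *Ppbp*, *Itga2b*) were high in knockout replicate 4, at 847 CPM, and so were the summed stromal markers, at 537 CPM. The same mouse was one of the 2 in which *Pwwp2a* was low.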

How the results depend on the processing

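In 17 other fits 0 of the 10 members, 0 of the other PWWP genes and 0 of the partner genes passed an adjusted p of 0.25. *Hdgfl2* kept its call wherever it was tested. Over all genes the number past 0.25 was 2 in the reported fit, 21 with DESeq2, 41 with no filter on low counts (19 under 0.05), 1 with at least 10 counts in every mouse, 1 with the replicate block, and from 2 to 7 without 1 mouse. The cause was not tested. Same-numbered mice did not deviate together (correlations −0.19 to −0.02), so the numbers were not taken to pair the mice.

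The number of members without overlap was 0 in the reported fit, 2 when thinned to the smallest library (*Brd1* and *Pwwp2a*, with 5.45% of all genes) and from 0 to 1 without 1 mouse (with 8.98% to 13.2% of all genes). *Brd1*, *Pwwp2a* and *Dnmt3b* kept their sign in all 17 fits, and *Dnmt3b* ran from −0.17 (thinned) to −0.05 (without wild type replicate 1). The others, near 0, did not. *Zmynd8* turned to 0.0016 with DESeq2, 0.0019 with median-ratio size factors and 0.00029 with the replicate block, where *Brpf1* was −0.0095 and *Brpf3* 0.052. Without 1 mouse the log2 fold change ran from −0.10 to 0.0040 for *Dnmt3a*, −0.017 to 0.14 for *Brpf1*, −0.31 to 0.12 for *Brpf3*, −0.28 to 0.043 for *Glyr1*, −0.054 to 0.095 for *Msh6*, −0.11 to 0.050 for *Zmynd11* and −0.044 to 0.052 for *Zmynd8*. The unadjusted p of *Pwwp2a* was 0.0493 with limma-voom, 0.0304 with no filter, 0.0284 when thinned, 0.0428 without knockout replicate 1 and 0.0119 without knockout replicate 3, and from 0.0566 to 0.214 in the other fits. Counting alone gives the members an error of 3.13% to 9.67% of the level, below the 21.3% common variation between mice.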
